A study of Mus musculus with 12 samples.

Results

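Control cardiac fibroblasts were followed from Day 7 to 4 weeks of culture by bulk RNAseq, and the late change in these cells is described here. The cells were selected by their sample labels: 2 control libraries at Day 7 and 2 control libraries at 4 weeks, 4 of the 12 libraries in the series. The other 8 libraries are 2 control libraries at Day 3 and 6 libraries of Sox17-Erg treated cells, 2 each at Day 3, Day 7 and 4 weeks. The series was collected to ask how endothelial identity is acquired under Sox17-Erg, and the control cells give the change over the same interval without these factors.

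The control cells were labelled heart fibroblast and were grown in EGM2 media (an endothelial growth medium). Their columns in the count table are named PMX, as is the retroviral backbone of the study, and the labels do not give what the control virus carried. The methods describe 1 isolation protocol for all groups, control and treated. By the study's methods, hearts of newborn mice were pooled, PECAM1-positive cells were depleted, THY1-positive cells were selected with magnetic beads and the cells were plated on collagen and infected on the following day. The control cells are therefore a selected primary mixture from pooled animals and not a cell line. The labels do not say whether 2 replicates came from separate isolations, so p-values measure only the spread between these libraries, which may be technical.

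Cardiac fibroblasts make and maintain the extracellular matrix of the heart. In the newborn heart they proliferate and deposit collagen, fibronectin and basement membrane proteins, and they leave the cell cycle as the heart matures. On stiff plastic, fibroblasts can be activated toward myofibroblasts, which secrete periostin and collagen and assemble contractile actin filaments. Activated fibroblasts can also return to a quiescent state, and long culture can lead to a lasting exit from the cell cycle.

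The 4 libraries held 24120758 to 41240449 counts on genes, and 4-week replicate 1 was the deepest. The share of counts on mitochondrial genes was 3.09% and 2.96% at Day 7 and 1.82% and 2.30% at 4 weeks, and its part in the results was not tested. Markers of fibroblasts were present in every library. *Pdgfra*, the PDGF receptor that marks cardiac fibroblasts, was measured at 1138 and 1905 CPM at Day 7 and 1657 and 1609 CPM at 4 weeks. *Tcf21*, a transcription factor of this lineage, was measured at 343 and 582 CPM at Day 7 and 543 and 362 CPM at 4 weeks, so both markers were expressed at both times. *Thy1*, the antigen used for selection, was 349 and 296 CPM at Day 7 and 163 and 133 CPM at 4 weeks, with no overlap between the times (log2 fold change -1.12, SE 0.25, adjusted p = 0.0941 by edgeR). Over the whole list of 20 cardiac fibroblast markers, edgeR called 1 lower and none higher, DESeq2 called 4 lower, and the median log2 fold change was -0.06. Its sign was not stable, at -0.16 without Day 7 replicate 1 or without 4-week replicate 1, 0.07 without Day 7 replicate 2 and 0.08 without 4-week replicate 2. In bulk RNA, fewer cells of a type and less RNA per cell cannot be told apart.

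To identify the genes that differed between Day 7 and 4 weeks, counts were compared with edgeR's quasi-likelihood test in a fit of all 12 libraries, in which levels are depth-scaled counts with TMM factors (CPM). Calls required an adjusted p under 0.05 (Benjamini-Hochberg over all genes tested), and fold changes are 4 weeks relative to Day 7. Of 15506 genes tested, 27 rose (0.174%) and 34 fell (0.219%), 61 in all (0.393%). At an unadjusted p under 0.05 there were 1134 higher (7.31%) and 1245 lower genes (8.03%). A positive sign was found for 8060 genes and a negative sign for 7384 (47.6%). The median log2 fold change was 1.69 in the genes that rose and -1.16 in those that fell, against 0.02 over all genes tested. In all 61 genes the 2 libraries of one time lay outside the range of the other, which was the case for 22.8% of all genes tested in the upward and 20.21% in the downward direction. Counts within the gene lists below are to be read against these shares over all genes.

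**Figure D1:**
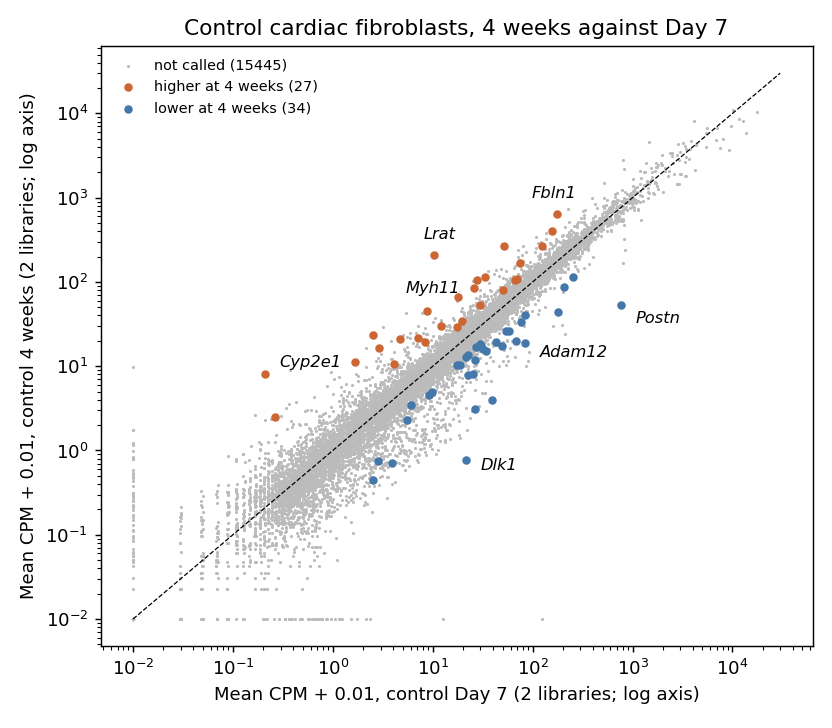
Mean CPM of each of 15506 tested genes in the 2 control libraries at 4 weeks (vertical) against the 2 at Day 7 (horizontal), both plus 0.01 and on log axes, with the dashed line marking equal levels. The 27 genes called higher (orange) and the 34 called lower (blue) lie off the diagonal at many levels, with Postn and Dlk1 among those farthest below it and Lrat and Cyp2e1 among those farthest above.

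How many genes were called depended strongly on the libraries. The counts were 0 higher and 1 lower without Day 7 replicate 1, 6 and 17 without Day 7 replicate 2, 0 and 0 without 4-week replicate 1, and 19 and 19 without 4-week replicate 2. With only the 4 libraries compared, 0 genes were called by edgeR in either direction, with 733 higher and 912 lower at an unadjusted p under 0.05. DESeq2's Wald test on all 12 libraries called 305 higher and 432 lower. With an offset for the GC content of genes, 31 rose and 22 fell, so that 58.5% of called genes were higher against 44.3%. The 61 genes kept their direction in each of the 15 alternative analyses. Their times did not overlap and some settings changed only the cutoff, so this was largely fixed in advance and is no test of stability. 

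Of all called genes, the smallest adjusted p was found for *Postn* (periostin), a matricellular protein of activated fibroblasts (gene at chr3:54361109-54391037, GRCm38). *Postn* was 711 and 810.3 CPM at Day 7 and 60.4 and 47.5 CPM at 4 weeks. Both 4-week libraries were far below both Day 7 libraries, and the gene fell by 3.82 on the log2 scale (SE 0.29, edgeR adjusted p = 0.00387), a 14.1-fold difference. The Day 3 control libraries held 5120 and 5992 CPM. *Postn* was the one gene called at an adjusted p under 0.01 and kept its call in 13 of 15 alternative analyses, in which its adjusted p did not exceed 0.0786.

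Several other genes that fell encode matrix, cell surface or scaffold proteins. *Fndc1*, which encodes a fibronectin type III domain protein, was 32.8 and 45.4 CPM at Day 7 and 5.26 and 2.77 CPM at 4 weeks (log2 fold change -3.26, SE 0.34, adjusted p = 0.0117). *Adam12*, a membrane-bound metalloproteinase, was 99.9 and 68.2 CPM at Day 7 and 18.3 and 19.4 CPM at 4 weeks (log2 fold change -2.15, SE 0.30, adjusted p = 0.0295). Its relative *Adam19* was 89.2 and 64.7 CPM at Day 7 and 30.7 and 35.6 CPM at 4 weeks (log2 fold change -1.21, SE 0.16, adjusted p = 0.0239). For these genes every 4-week library lay below every Day 7 library. *Lama4*, the alpha4 chain of laminins in vascular and muscle basement membranes, was 193 and 219.8 CPM at Day 7 and 82.6 and 90.4 CPM at 4 weeks (log2 fold change -1.26, SE 0.17, adjusted p = 0.0278). *Spon2*, a secreted matrix protein, was 223 and 136 CPM at Day 7 and 36.2 and 51.7 CPM at 4 weeks (log2 fold change -2.03, SE 0.32, adjusted p = 0.041). *Sh3pxd2b*, a scaffold protein of podosomes, was 77.3 and 90.3 CPM at Day 7 and 35.5 and 45.1 CPM at 4 weeks (log2 fold change -1.06, SE 0.17, adjusted p = 0.0475). The times did not overlap for these genes either, and of the 3 *Spon2* had the widest Day 7 spread.

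Within the collagen family no chain was called. Of 37 collagen chain genes tested, 27 had a negative log2 fold change, 14 were lower and 2 higher at an unadjusted p under 0.05 and the median was -0.54. DESeq2 called 11 lower and 1 higher. *Col1a1*, the main chain of fibrillar type I collagen, was 9049 and 9578 CPM at Day 7 and 3722 and 3730 CPM at 4 weeks (edgeR adjusted p = 0.0751). Its partner *Col1a2* was 6572 and 8294 CPM at Day 7 and 4153 and 3579 CPM at 4 weeks (adjusted p = 0.129). The fibrillar chain *Col5a2* was 2498 and 3085 CPM at Day 7 and 1496 and 1386 CPM at 4 weeks (adjusted p = 0.0781). In all of these the times did not overlap, although the adjusted p was above 0.05. The basement membrane chain *Col4a1* was 16712 and 18199 CPM at Day 7 and 10697 and 10322 CPM at 4 weeks (adjusted p = 0.19). *Col3a1*, also fibrillar, was 5064 and 8670 CPM at Day 7 and 5902 and 3808 CPM at 4 weeks, where the Day 7 replicates differed from each other by more than the times did. The opposite sign was seen in *Col4a3*, a chain of another type IV collagen trimer, at 157 and 149 CPM at Day 7 and 279.6 and 283 CPM at 4 weeks (log2 fold change 0.88 (SE 0.22), adjusted p = 0.11).

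Among 34 matricellular and elastic fiber genes, 1 was called lower (*Postn*) and 1 higher (*Fbln1*), and the median log2 fold change was -0.19 (0.07 without Day 7 replicate 1, -0.12 without Day 7 replicate 2, -0.29 without 4-week replicate 1 and -0.02 without 4-week replicate 2). DESeq2 called 4 higher and 6 lower. The call of *Fbln1* was lost without Day 7 replicate 1, without Day 7 replicate 2 and without 4-week replicate 1, and that of *Postn* without 4-week replicate 1. *Fbln1*, which encodes the elastic fiber and basement membrane protein fibulin-1, was 136 and 214 CPM at Day 7 and 786 and 487 CPM at 4 weeks (log2 fold change 1.86, SE 0.30, adjusted p = 0.0473). *Fn1* (fibronectin) was 12578 and 14788 CPM at Day 7 and 7688 and 3904 CPM at 4 weeks (adjusted p = 0.141), without overlap. *Sparc*, a collagen-binding matricellular protein, was 7522 and 8625 CPM at Day 7 and 5146 and 4697 CPM at 4 weeks (adjusted p = 0.144). Of 37 matrix enzymes and inhibitors, the 2 called were *Adam12* and *Adam19*, both lower, and the median was -0.18 (-0.04 without Day 7 replicate 2, -0.10 without 4-week replicate 2 and -0.36 without 4-week replicate 1). Neither was called without Day 7 replicate 1, without 4-week replicate 1 or without 4-week replicate 2, and DESeq2 called 5 of the list lower. Of 20 proteoglycan genes none was called by edgeR, with 3 higher and 4 lower at an unadjusted p under 0.05, 2 lower by DESeq2 and a median of 0.21 (0.05 without 4-week replicate 1 and 0.04 without 4-week replicate 2). *Bgn* (biglycan), a small leucine-rich proteoglycan, was 8947 and 11399 CPM at Day 7 and 12158 and 9558 CPM at 4 weeks, and *Dcn* (decorin) was 1187 and 2259 CPM at Day 7 and 2855 and 2350 CPM at 4 weeks. The 4-week libraries of *Bgn* overlapped with those of Day 7, and those of *Dcn* lay just above.

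**Figure D2:**
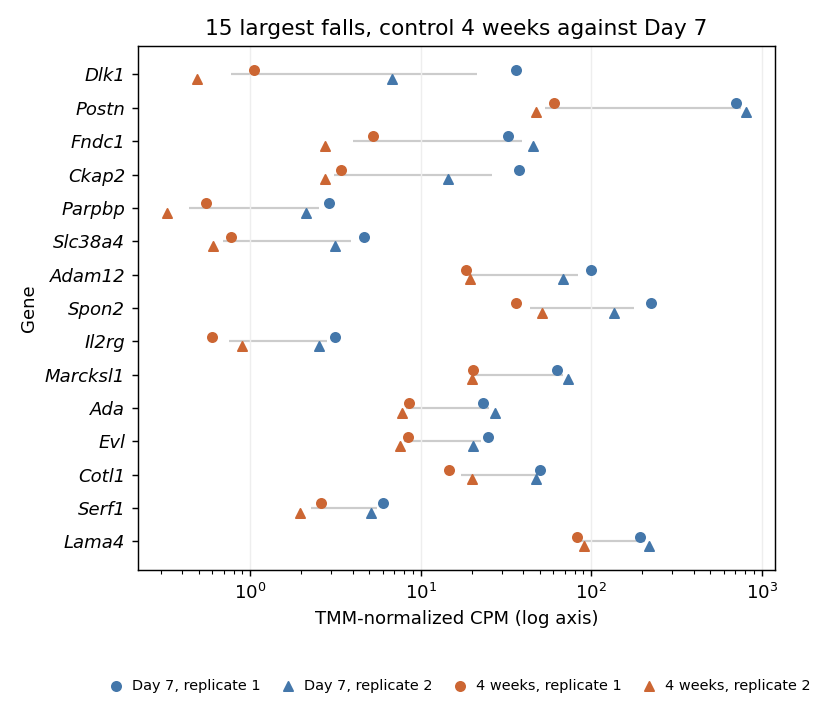
CPM (log axis) of the 15 called genes with the largest fall in control cells, with 1 point per library (blue, Day 7; orange, 4 weeks; circle, replicate 1; triangle, replicate 2) and a grey line joining the group means. Every orange point lies to the left of both blue points, and the Day 7 replicates are farthest apart in Dlk1 and Ckap2.

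Genes of fetal growth were also among those that fell. *Dlk1* (chr12:109452823-109463336), an imprinted gene for a Notch-related membrane protein of fetal and progenitor cells, was 36.02 and 6.75 CPM at Day 7 and 1.05 and 0.488 CPM at 4 weeks (log2 fold change -4.74, SE 0.75, adjusted p = 0.0414). It had the largest fitted fall of all called genes, and its Day 7 replicates differed severalfold. Without Day 7 replicate 1 the log2 fold change was -3.10 and the call was lost. *Slc38a4*, an imprinted amino acid transporter, was 4.69 and 3.13 CPM at Day 7 and 0.777 and 0.61 CPM at 4 weeks (log2 fold change -2.47, SE 0.24, adjusted p = 0.0117). *Igf2bp3*, an oncofetal RNA-binding protein, was 33.9 and 33.5 CPM at Day 7 and 16.2 and 14.3 CPM at 4 weeks (log2 fold change -1.14, SE 0.14, adjusted p = 0.0171). Here the replicates were nearly equal within each time.

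The list of 14 tested imprinted growth genes held 2 called lower, 0 called higher, 5 lower at an unadjusted p under 0.05 and a median log2 fold change of -0.47 (-0.91 without 4-week replicate 1 and -0.23 without 4-week replicate 2). DESeq2 called 5 lower. *Igf2*, the fetal insulin-like growth factor, was 71.01 and 38.8 CPM at Day 7 and 24.7 and 15.05 CPM at 4 weeks (adjusted p = 0.0857). *Igf2r*, its clearance receptor, was 333 and 462 CPM at Day 7 and 227 and 173 CPM at 4 weeks (adjusted p = 0.0699). *Mest* was 60.4 and 62.4 CPM at Day 7 and 27.9 and 11.9 CPM at 4 weeks (adjusted p = 0.108). These list members, like the others named here with an adjusted p above 0.05, were mostly chosen after their values were seen. *Peg3* was 313 and 725 CPM at Day 7 and 708 and 355 CPM at 4 weeks, with complete overlap. Of 8 fetal growth genes of the let-7 and Lin28 pathway, edgeR called only *Igf2bp3* and DESeq2 called 3 lower. Its relative *Igf2bp1* was 21.1 and 18.7 CPM at Day 7 and 12.7 and 11.996 CPM at 4 weeks (adjusted p = 0.0921), and *Hmga2*, a chromatin protein of embryonic cells, was 65.8 and 28.6 CPM at Day 7 and 10.5 and 22.7 CPM at 4 weeks (adjusted p = 0.157).

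In the insulin-like growth factor axis of 20 genes, 1 was called lower (*Igf2bp3*), 6 were higher and 5 lower at an unadjusted p under 0.05, and the median log2 fold change was 0.11 (-0.03 without 4-week replicate 1 and 0.22 without Day 7 replicate 2). The call was lost without any 1 of the 4 control libraries compared, and DESeq2 called 1 higher and 4 lower. The postnatal ligand *Igf1* was 36.1 and 76.5 CPM at Day 7 and 111 and 97.3 CPM at 4 weeks (adjusted p = 0.268). *Igfbp3*, a secreted carrier of both ligands, was 311 and 719 CPM at Day 7 and 1641 and 1357 CPM at 4 weeks (adjusted p = 0.0996). Both 4-week libraries were above both Day 7 libraries for these genes, but the Day 7 replicates differed by about as much as the times did for *Igf1*. *Pappa*, a protease that cleaves such carriers, was 23.8 and 41.4 CPM at Day 7 and 84.4 and 53.4 CPM at 4 weeks (adjusted p = 0.252).

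The genes that fell included 2 of cell division and DNA repair, whereas no member of the cell cycle lists was called by edgeR. *Ckap2*, a spindle microtubule protein, was 37.8 and 14.5 CPM at Day 7 and 3.41 and 2.77 CPM at 4 weeks (log2 fold change -3.07, SE 0.48, adjusted p = 0.0404). *Parpbp*, a regulator of homologous recombination, was 2.92 and 2.13 CPM at Day 7 and 0.551 and 0.325 CPM at 4 weeks (log2 fold change -2.47, SE 0.38, adjusted p = 0.0404). Neither of these called genes was on a list. All 31 mitosis genes were lower at an unadjusted p under 0.05 with no overlap between the times and a median log2 fold change of -2.88, but 0 were called by edgeR, whereas DESeq2 called all 31, as did edgeR without a filter on low counts. The summed level of the 31 genes was 975 and 330 CPM at Day 7 and 99.9 and 85.2 CPM at 4 weeks. *Mki67*, the proliferation marker Ki-67, was 136 and 45.01 CPM at Day 7 and 11.7 and 11.3 CPM at 4 weeks (log2 fold change -2.98 (SE 0.67), edgeR adjusted p = 0.0933). *Top2a*, the topoisomerase of dividing cells, was 132 and 37.7 CPM at Day 7 and 9.17 and 10.7 CPM at 4 weeks (log2 fold change -3.10 (SE 0.69), adjusted p = 0.0931). The 4-week replicates were close, and the Day 7 replicates differed about as widely as replicate 2 differed from 4 weeks. Without Day 7 replicate 1, the median over the mitosis genes was -1.86.

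All 34 DNA replication genes had a negative log2 fold change, 22 with an unadjusted p under 0.05, and the median was -1.03 (-0.51 without Day 7 replicate 1). None was called by edgeR and DESeq2 called 7. *Mcm2*, a subunit of the replicative helicase, was 27.7 and 15.6 CPM at Day 7 and 7.49 and 13.1 CPM at 4 weeks (adjusted p = 0.237). *Rrm2*, the S-phase subunit of ribonucleotide reductase, was 52.7 and 15.4 CPM at Day 7 and 5.41 and 7.89 CPM at 4 weeks (adjusted p = 0.116). *Pcna*, the sliding clamp, was 67.8 and 35.6 CPM at Day 7 and 33.9 and 52.9 CPM at 4 weeks, and its times overlapped. Of 20 nuclear envelope and chromatin genes, 19 had a negative sign with a median of -0.81 (-0.31 without Day 7 replicate 1 and -1.23 without Day 7 replicate 2), 12 were lower at an unadjusted p under 0.05, none was called by edgeR and DESeq2 called 5. *Lmnb1* (lamin B1) was 26.9 and 7.03 CPM at Day 7 and 2.83 and 4.51 CPM at 4 weeks (adjusted p = 0.182), and *Lmna* (lamin A/C) was 377 and 272 CPM at Day 7 and 277 and 306 CPM at 4 weeks.

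The listed regulators of entry into the cycle had mixed signs. Of 11 G1 cyclin and kinase genes 6 had a positive and 5 a negative sign, and none was called by either tool, with 2 higher and 1 lower at an unadjusted p under 0.05. *Ccnd1* (cyclin D1) was 607 and 369 CPM at Day 7 and 468 and 614 CPM at 4 weeks. The cyclin E genes were not on this list and had a negative sign. By DESeq2 the log2 fold change was -1.26 for *Ccne1* (adjusted p = 0.0657) and -2.12 for *Ccne2* (adjusted p = 0.0467). EdgeR called neither. Among 23 CDK inhibitors and p53 targets, none was called by edgeR, 2 were higher and 4 lower at an unadjusted p under 0.05 and DESeq2 called 1 in each direction. *Cdkn1a*, the p53 target p21, was 362 and 234 CPM at Day 7 and 301 and 241 CPM at 4 weeks, where the times overlapped. *Cdkn2a*, the locus of p16INK4a and p19ARF, was 22.8 and 12.1 CPM at Day 7 and 76.7 and 41.8 CPM at 4 weeks (log2 fold change 1.76 (SE 0.37), adjusted p = 0.0857), with both 4-week libraries above both Day 7 libraries. Gene counts do not separate the transcripts of that locus. Of 24 secreted proteins of senescence, none was called by edgeR, 4 were higher and 4 lower at an unadjusted p under 0.05, and DESeq2 called 1 higher and 2 lower. *Il6* was near the detection limit at 0.691 and 0.121 CPM at Day 7 and 0.276 and 0.285 CPM at 4 weeks.

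Many promoters of mitotic genes carry a CCAAT box, bound by NF-Y, and a cell cycle homology region, through which the DREAM complex represses them outside of division. As all 31 mitosis genes had a negative log2 fold change, although edgeR called none, the 250 bases before their RefSeq start sites (GRCm38.p6) were searched for CCAAT and for TTTGAA on both strands. Copies on opposite strands can overlap, as the pair CCAATTGG does in *Ube2c*. Of the 31 genes, 25 matched a promoter entry by symbol. CCAAT was found for 19 of the 25 (76.0%) and TTTGAA for 8 (32.0%), all of which also had CCAAT. Over all 27025 genes with a promoter entry, CCAAT was found for 37.5%, TTTGAA for 18.3% and both for 6.5%, and over the 11206 tested genes with an entry the shares were 40.4%, 13.5% and 5.1%. For the 27 DNA replication genes with an entry the shares were 55.6%, 18.5% and 11.1%. Promoters of 3 of the 8 mitosis genes with both motifs are shown as examples and not as a ranking. These 3 genes had log2 fold changes of -3.02 or lower, and none was called by edgeR. The sequences are in the direction of transcription, with both motifs in capitals (as CCAAT or ATTGG and as TTTGAA or TTCAAA). The last base is the one before the start.
Ube2c (chr2:164769679-164769928, plus strand): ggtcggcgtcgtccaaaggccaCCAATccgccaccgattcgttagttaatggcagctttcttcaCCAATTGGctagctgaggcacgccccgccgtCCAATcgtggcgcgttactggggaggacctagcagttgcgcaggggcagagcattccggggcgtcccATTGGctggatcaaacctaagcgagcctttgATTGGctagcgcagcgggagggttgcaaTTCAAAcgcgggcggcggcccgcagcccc
Top2a (chr11:99024190-99024439, minus strand): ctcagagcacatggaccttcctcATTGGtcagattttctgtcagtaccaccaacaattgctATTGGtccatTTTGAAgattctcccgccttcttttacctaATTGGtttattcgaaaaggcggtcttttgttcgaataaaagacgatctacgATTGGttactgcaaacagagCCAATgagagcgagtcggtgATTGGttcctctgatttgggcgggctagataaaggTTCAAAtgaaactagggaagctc
Kif11 (chr19:37376132-37376381, plus strand): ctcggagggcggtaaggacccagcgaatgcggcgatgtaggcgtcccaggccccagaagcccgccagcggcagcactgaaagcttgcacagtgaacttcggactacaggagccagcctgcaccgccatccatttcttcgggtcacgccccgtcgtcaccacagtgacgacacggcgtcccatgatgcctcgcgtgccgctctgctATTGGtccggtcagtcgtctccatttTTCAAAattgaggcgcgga
In these promoters a TTCAAA begins 29, 23 and 19 bases before the start, and an ATTGG begins 57, 58 and 45 bases before it. *Ube2c*, the ubiquitin-conjugating enzyme of the anaphase-promoting complex, was 31.2 and 12.9 CPM at Day 7 and 2.31 and 1.22 CPM at 4 weeks (log2 fold change -3.60 (SE 0.68), adjusted p = 0.0687). *Kif11*, the spindle motor Eg5, was 27.6 and 8.64 CPM at Day 7 and 2.43 and 1.99 CPM at 4 weeks (log2 fold change -3.02 (SE 0.66), adjusted p = 0.0912). A motif match is a description of the sequence and does not show that a factor was bound.

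Further genes that fell encode actin-binding and other proteins. *Marcksl1*, an actin-binding MARCKS protein, was 63.4 and 72.7 CPM at Day 7 and 20.2 and 20.1 CPM at 4 weeks (log2 fold change -1.76, SE 0.21, adjusted p = 0.0151). *Evl*, an Ena/VASP protein that promotes actin filament growth, was 24.8 and 20.2 CPM at Day 7 and 8.39 and 7.52 CPM at 4 weeks (log2 fold change -1.50, SE 0.17, adjusted p = 0.0151). *Cotl1*, an F-actin-binding protein, was 50.2 and 47.3 CPM at Day 7 and 14.8 and 19.97 CPM at 4 weeks (log2 fold change -1.49, SE 0.23, adjusted p = 0.0404). In each, both 4-week libraries lay below both Day 7 libraries by more than the replicates differed. *Ada* (adenosine deaminase) was 23.1 and 27.4 CPM at Day 7 and 8.52 and 7.81 CPM at 4 weeks (log2 fold change -1.63, SE 0.18, adjusted p = 0.0117). *Tead2*, a DNA-binding partner of YAP and TAZ, was 24.2 and 29.1 CPM at Day 7 and 12.2 and 11.5 CPM at 4 weeks (log2 fold change -1.17, SE 0.19, adjusted p = 0.0469). *Il2rg*, the common gamma chain of interleukin receptors, was 3.15 and 2.53 CPM at Day 7 and 0.601 and 0.895 CPM at 4 weeks (log2 fold change -1.94, SE 0.32, adjusted p = 0.0482). *Il2rg* shared 28.72% of its 31-base words with the overlapping gene *Gm20489*, so its level is uncertain. Leukocytes are its main source in tissues, and the summed macrophage and leukocyte markers given below were also lower at 4 weeks, but their part in this fall was not tested. *Serf1*, which overlaps an opposite-strand gene, was 6.03 and 5.1 CPM at Day 7 and 2.61 and 1.95 CPM at 4 weeks (log2 fold change -1.28, SE 0.20, adjusted p = 0.0421). *Wdr6* and *Fgd3* also fell, *Wdr6* from 55.4 and 53.8 CPM to 27.9 and 25.1 CPM and *Fgd3*, a Cdc42 exchange factor, from 9.75 and 9.97 CPM to 4.99 and 4.76 CPM.

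The genes that rose included several that encode enzymes. *Cyp2e1*, the ethanol-oxidizing cytochrome P450, was 0.115 and 0.281 CPM at Day 7 and 7.57 and 8.54 CPM at 4 weeks (log2 fold change 5.32, SE 0.58, adjusted p = 0.0117). The Day 7 level rests on 3 and 7 counts against 302 and 210 at 4 weeks, so that the size of this rise is imprecise. *Lrat* (chr3:82892579-82903973), which esterifies retinol for storage, was 7.8 and 12.9 CPM at Day 7 and 281 and 133 CPM at 4 weeks (log2 fold change 4.32, SE 0.47, adjusted p = 0.0117), a 20.0-fold difference, and it held 0.109 and 0.0462 CPM at Day 3. Its 4-week replicates differed from each other, but as a ratio by far less than either differed from the Day 7 libraries. *Gsta3*, an alpha-class glutathione transferase, was 53.4 and 48.9 CPM at Day 7 and 301 and 232 CPM at 4 weeks (log2 fold change 2.38, SE 0.32, adjusted p = 0.0239). *Acsm3*, a mitochondrial medium-chain acyl-CoA synthetase, was 0.346 and 0.161 CPM at Day 7 and 2.63 and 2.28 CPM at 4 weeks (log2 fold change 3.25, SE 0.54, adjusted p = 0.0476). *Folh1*, a membrane glutamate carboxypeptidase, was 2.46 and 2.57 CPM at Day 7 and 29.6 and 16.9 CPM at 4 weeks (log2 fold change 3.21, SE 0.49, adjusted p = 0.0404). The Day 7 levels of *Acsm3* and *Cyp2e1* were under 1 CPM in both libraries.

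Genes for a channel, for receptors and for other proteins also rose. *Nalcn*, the sodium leak channel, was 2.42 and 3.3 CPM at Day 7 and 18.9 and 13.8 CPM at 4 weeks (log2 fold change 2.52, SE 0.34, adjusted p = 0.0239). *Chrm2*, the M2 muscarinic acetylcholine receptor of the heart, was 4.22 and 5.1 CPM at Day 7 and 23.3 and 18.9 CPM at 4 weeks (log2 fold change 2.18, SE 0.34, adjusted p = 0.041). *Gnai1*, an inhibitory G protein alpha subunit, was 20.3 and 34.7 CPM at Day 7 and 118 and 94.7 CPM at 4 weeks (log2 fold change 1.95, SE 0.28, adjusted p = 0.0295). Each was several times higher in both 4-week libraries than in either Day 7 library. *Cmklr1*, a chemerin receptor, was 23.6 and 28.5 CPM at Day 7 and 87.1 and 81.6 CPM at 4 weeks (log2 fold change 1.69, SE 0.26, adjusted p = 0.0404). *Cx3cl1*, the membrane-bound chemokine fractalkine, was 36.02 and 30.4 CPM at Day 7 and 104 and 124 CPM at 4 weeks (log2 fold change 1.78, SE 0.20, adjusted p = 0.0117). The replicates of *Cx3cl1* and *Cmklr1* were close within each time. *Eef1a2*, the elongation factor isoform of muscle and neurons, was 1.38 and 1.93 CPM at Day 7 and 12.2 and 10.004 CPM at 4 weeks (log2 fold change 2.74, SE 0.34, adjusted p = 0.0171). *Nox4*, an NADPH oxidase, was 6.68 and 7.52 CPM at Day 7 and 25.2 and 18.3 CPM at 4 weeks (log2 fold change 1.61, SE 0.17, adjusted p = 0.0117). *Smoc1*, a secreted modulator of BMP signaling, was 11.9 and 12.3 CPM at Day 7 and 28.4 and 31.6 CPM at 4 weeks (log2 fold change 1.31, SE 0.14, adjusted p = 0.0117), and was among the 5 rises with the smallest adjusted p.

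**Figure D3:**
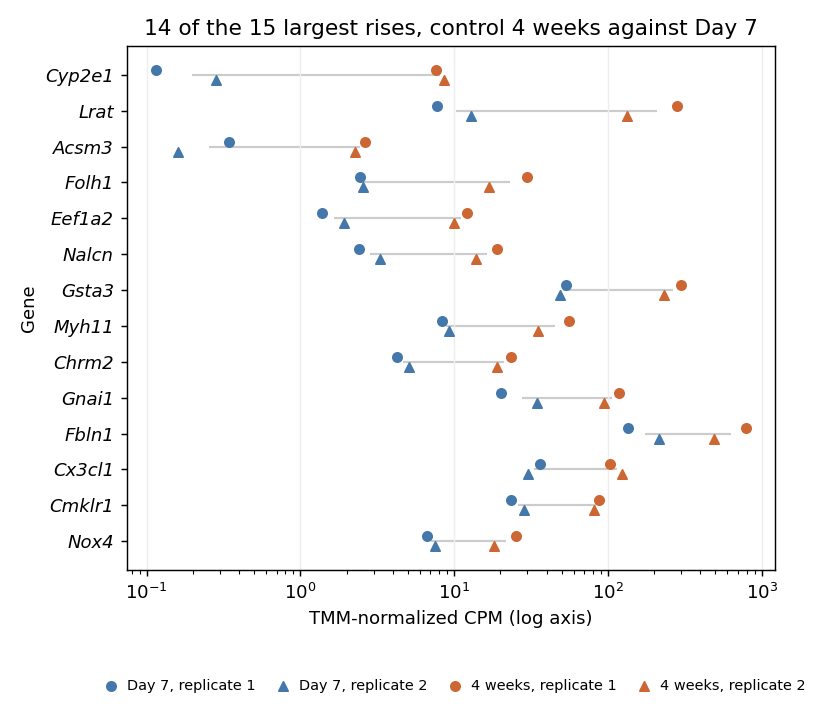
CPM (log axis) of 14 of the 15 called genes with the largest rise in control cells, with 1 point per library (blue, Day 7; orange, 4 weeks; circle, replicate 1; triangle, replicate 2) and a grey line joining the group means. Every orange point lies to the right of both blue points, and Cyp2e1 and Acsm3 start below 1 CPM.

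The remaining called rises were smaller, with *Dusp3*, a dual-specificity phosphatase, from 67.8 and 65.2 CPM to 103 and 107 CPM (log2 fold change 0.66 (SE 0.10)) and *Myo1d*, an unconventional myosin, from 128 and 119 CPM to 272 and 262 CPM (log2 fold change 1.11 (SE 0.14)). *Crispld2*, a secreted glycoprotein, was 123 and 187 CPM at Day 7 and 386 and 412 CPM at 4 weeks (log2 fold change 1.36, SE 0.22, adjusted p = 0.0424). *Pkig*, an inhibitor of protein kinase A, was 79.9 and 70.8 CPM at Day 7 and 177 and 161 CPM at 4 weeks (log2 fold change 1.17, SE 0.18, adjusted p = 0.0404). *Gm20521* shared 97.7% of its 31-base words with other genes, mainly *Bcl2l2* and *Pabpn1* that it spans, and its call is uncertain.

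Of 22 contractile and myofibroblast genes, only *Myh11* was called by either tool. *Myh11*, the smooth muscle myosin heavy chain, was 8.33 and 9.28 CPM at Day 7 and 55.9 and 35.3 CPM at 4 weeks (log2 fold change 2.37, SE 0.30, adjusted p = 0.0178). The list median was 0.32 (0.50 without Day 7 replicate 1, 0.19 without Day 7 replicate 2, 0.57 without 4-week replicate 1 and 0.03 without 4-week replicate 2), *Myh11* was called by edgeR only in the last of these, and 18 of 22 genes had a positive sign. *Acta2*, the smooth muscle actin of myofibroblasts, was 698 and 347 CPM at Day 7 and 548 and 1435 CPM at 4 weeks (adjusted p = 0.429). *Tagln* (transgelin) was 541 and 106 CPM at Day 7 and 302 and 928 CPM at 4 weeks (adjusted p = 0.636). In both genes 4-week replicate 2 was high, and 4-week replicate 1 lay between the Day 7 replicates.

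Most complement genes had a positive sign, and none was called by edgeR. Of 16 genes, 13 had a positive sign, 7 were higher and 2 lower at an unadjusted p under 0.05, the median was 0.94 (0.52 without 4-week replicate 1), and DESeq2 called 3 higher and 1 lower. *C3*, the central component, was 741 and 846 CPM at Day 7 and 2683 and 2988 CPM at 4 weeks (log2 fold change 1.84 (SE 0.45), adjusted p = 0.108). *C1s1*, a protease of the classical pathway, was 129 and 144 CPM at Day 7 and 388 and 267 CPM at 4 weeks (adjusted p = 0.0996). In both of these the 4-week libraries were above the Day 7 libraries. *Cfp* (properdin), made largely by leukocytes, had the opposite sign at 9.22 and 18.04 CPM at Day 7 and 3.23 and 5.12 CPM at 4 weeks (adjusted p = 0.126).

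In TGF-beta and BMP signaling, 36 genes were tested, none was called by edgeR, 7 were higher and 2 lower at an unadjusted p under 0.05, and DESeq2 called 4 higher and 1 lower. *Bmp3* was 3.19 and 4.46 CPM at Day 7 and 25.98 and 14.2 CPM at 4 weeks (log2 fold change 2.39 (SE 0.43), adjusted p = 0.0611). *Gdf10*, a related ligand, was 5.34 and 8.8 CPM at Day 7 and 32.95 and 26.7 CPM at 4 weeks (log2 fold change 2.08 (SE 0.39), adjusted p = 0.0687). The receptor *Bmpr2* was 201 and 217 CPM at Day 7 and 308 and 297 CPM at 4 weeks (adjusted p = 0.0857). Of 30 Wnt signaling genes none was called by edgeR, and DESeq2 called 1 in each direction, with 3 higher and 2 lower at an unadjusted p under 0.05. The secreted inhibitor *Sfrp1* was 334 and 340.0 CPM at Day 7 and 925 and 492 CPM at 4 weeks (adjusted p = 0.0933). Of 34 oxidative phosphorylation genes none was called by either tool, 2 were higher and 1 lower at an unadjusted p under 0.05, and the log2 fold changes ran from -0.28 to 0.30 around a median of -0.02 (-0.06 to 0.03 when 1 control library was left out). *Atp5b*, a subunit of ATP synthase, was 573 and 528 CPM at Day 7 and 578 and 621 CPM at 4 weeks.

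Markers of other cell types were present in the cultures and varied between the libraries. Of 16 macrophage and leukocyte markers, none was called by edgeR and DESeq2 called 3 lower. Without overlap 15 were lower, against 20.21% of all genes tested. At an unadjusted p under 0.05, 8 were lower, against 8.03% of all genes tested. Their median log2 fold change was -2.22. Their summed level was 1090 and 1527 CPM at Day 7 and 57.4 and 499.6 CPM at 4 weeks. *Lyz2*, the lysozyme of myeloid cells, was 593 and 1011 CPM at Day 7 and 36.1 and 303 CPM at 4 weeks (adjusted p = 0.29). *Mrc1*, the mannose receptor of tissue macrophages, was 148 and 175 CPM at Day 7 and 4.21 and 55.3 CPM at 4 weeks (adjusted p = 0.287). *Csf1r*, the macrophage colony-stimulating factor receptor, was 26.9 and 26.9 CPM at Day 7 and 2.28 and 11.6 CPM at 4 weeks (adjusted p = 0.292). In each, 4-week replicate 1 held several times less than 4-week replicate 2. The list median was -1.32 without 4-week replicate 1 and -4.76 without 4-week replicate 2. No marker on the list was at 0 in all 4 libraries, and the part of these cells in the other results was not tested.

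Cardiomyocyte markers were low to moderate at both times, with summed levels of 914 and 672 CPM at Day 7 and 1111 and 1406 CPM at 4 weeks, and no member was called by either tool (2 higher and 0 lower at an unadjusted p under 0.05). Of 17 markers, 16 had a positive sign with a median of 0.70, or 1.08 without 4-week replicate 1 and 0.18 without 4-week replicate 2. *Tnnt2* (cardiac troponin T) made up most of each sum, at 804 and 526 CPM at Day 7 and 929.9 and 1097 CPM at 4 weeks. *Myh6* (alpha myosin heavy chain) was 40.9 and 67.4 CPM at Day 7 and 82.5 and 135 CPM at 4 weeks. Of 15 endothelial markers none was called by edgeR, 1 was higher and 4 lower at an unadjusted p under 0.05, and DESeq2 called 1 in each direction. The median log2 fold change was -1.13, but 0.53 without Day 7 replicate 2. The summed level had the opposite direction, at 788 and 1089 CPM at Day 7 and 1225 and 1886 CPM at 4 weeks, without overlap. *Cdh5*, *Pecam1* and *Flt1*, given next, made up only a minor part of that sum. *Cdh5* (VE-cadherin) was 0.23 and 8.08 CPM at Day 7 and 0.251 and 0.569 CPM at 4 weeks, with a level over 1 CPM only in Day 7 replicate 2. *Pecam1* was 8.95 and 12.4 CPM at Day 7 and 3.46 and 8.17 CPM at 4 weeks. *Flt1*, a VEGF receptor, had the opposite sign at 135 and 108 CPM at Day 7 and 236 and 361 CPM at 4 weeks (adjusted p = 0.0687). Of 12 epicardial and mesothelial markers none was called by either tool, with 1 higher and 0 lower at an unadjusted p under 0.05, and replicate 1 held more than replicate 2 at both times, as for *Msln* (mesothelin) at 721 and 367 CPM at Day 7 and 995 and 649 CPM at 4 weeks. Among 10 pericyte and smooth muscle markers edgeR called *Myh11* and DESeq2 called 2 higher and 1 lower, while *Pdgfrb* was 515 and 692 CPM at Day 7 and 662 and 741 CPM at 4 weeks and *Cspg4* was 37.6 and 19.7 CPM at Day 7 and 8.04 and 9.52 CPM at 4 weeks (adjusted p = 0.0901).

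**Figure D4:**
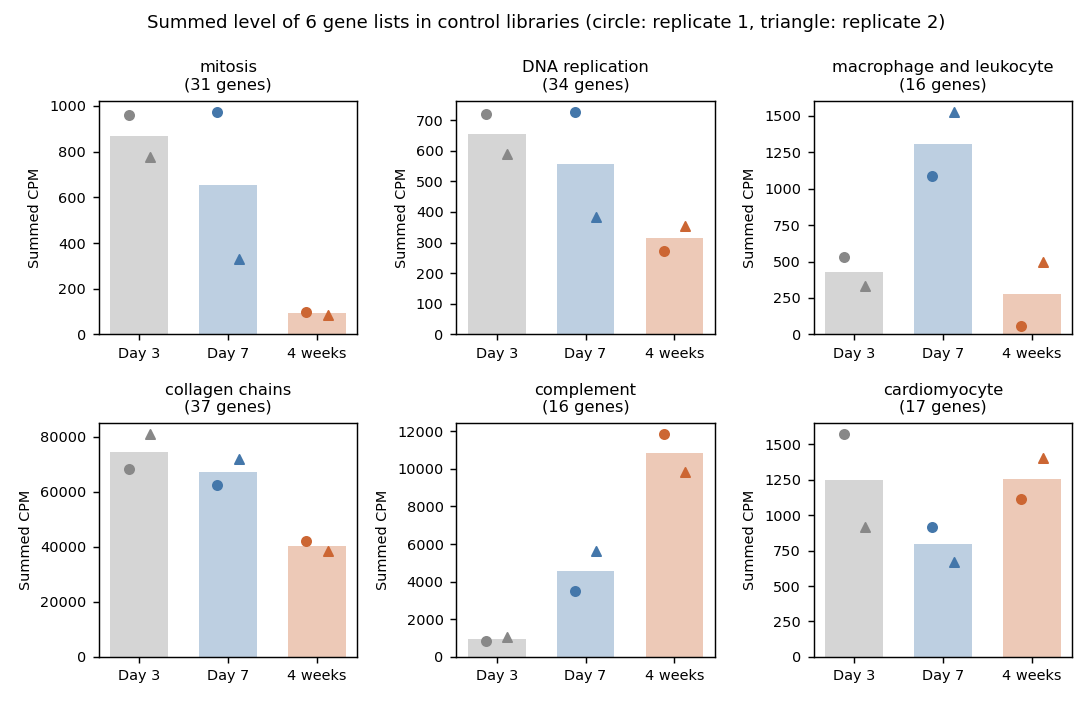
Summed CPM of the tested members of 6 gene lists in the control libraries at Day 3 (grey), Day 7 (blue) and 4 weeks (orange), with bars at the mean of 2 libraries, circles for replicate 1 and triangles for replicate 2. Mitosis genes reach 99.9 and 85.2 CPM at 4 weeks against 975 and 330 CPM at Day 7, and the macrophage list differs between the 4-week replicates (57.4 and 499.6 CPM). Tnnt2 makes up most of the cardiomyocyte sum at Day 7 and 4 weeks.

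Of the 39 gene lists examined, 9 held a gene called by edgeR and 30 held none, although DESeq2 called members of some of the 30 as given above. The 9 listed genes that edgeR called are *Postn*, *Fbln1*, *Adam12*, *Adam19*, *Myh11*, *Cx3cl1*, *Dlk1*, *Slc38a4* and *Igf2bp3*. Of 23 chemokine and cytokine ligands, edgeR called *Cx3cl1*, DESeq2 called 1 higher and 3 lower, and *Ccl2*, a monocyte chemokine, was 20.1 and 20.98 CPM at Day 7 and 11.5 and 12.3 CPM at 4 weeks (adjusted p = 0.0568). In the lists of cholesterol synthesis (21 genes), interferon-stimulated genes (31), glycolysis and hypoxia response (26), Notch signaling (16), adipocyte and lipid storage (18), antigen presentation (13) and immediate early genes (20), no gene was called by edgeR or DESeq2. At an unadjusted p under 0.05 these lists held, in the same order, 0, 1, 2, 1, 1, 1 and 0 higher and 1, 0, 1, 1, 0, 1 and 1 lower genes.

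To ask whether the late change was shared with treated cells, the Day 7 to 4 week difference in control cells was compared with that in Sox17-Erg cells by an interaction term. The 2 differences share no library. Both used the same estimate of each gene's spread, so calls in the 2 kinds of cells were not independent. Of the 27 genes that rose in control cells, 24 had a positive and of the 34 that fell, 29 had a negative log2 fold change in Sox17-Erg cells, against 50.05% and 49.95% of all tested genes, and 12 and 13 were also called there, against 1.15% of all tested genes called higher and 0.671% called lower in Sox17-Erg cells. The median log2 fold changes of these genes in Sox17-Erg cells were 1.03 and -0.67. *Postn* differed by -3.82 (SE 0.29) in control and -1.77 (SE 0.26) in Sox17-Erg cells on the log2 scale and *Myh11* by 2.37 (SE 0.30) and 2.79 (SE 0.29). The differences between these values were not called. *Lrat* was near 0 in Sox17-Erg cells, at 0 and 0.176 CPM at Day 7 and 0.46 and 0.852 CPM at 4 weeks, so that a fold there is not informative.

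The interaction was called for 6 genes (0.0387%), with 1004 at an unadjusted p under 0.05 and 144 called by DESeq2. Without Day 7 replicate 1 or without 4-week replicate 1 of the control cells the interaction was called for 0 genes. *Cd9*, a tetraspanin, was the one gene of the 61 among the 6. In control cells it was 46.7 and 39.4 CPM at Day 7 and 19.6 and 19.6 CPM at 4 weeks (log2 fold change -1.13, SE 0.16, adjusted p = 0.0346), and in Sox17-Erg cells it was 105 and 95.6 CPM at Day 7 and 225 and 172 CPM at 4 weeks. *Gpc1*, a cell surface heparan sulfate proteoglycan, was 8.18 and 6.11 CPM at Day 7 and 3.23 and 2.97 CPM at 4 weeks in control and 20.9 and 14.1 CPM at Day 7 and 69.3 and 59.4 CPM at 4 weeks in Sox17-Erg cells. The levels of both thus lay in opposite orders over time in the 2 kinds of cells. Of the genes that rose to the greatest extent in control cells, *Cyp2e1* stayed under 1 CPM in all 4 Sox17-Erg libraries of these times, and *Chrm2* was 2.76 and 3.87 CPM at Day 7 and 2.02 and 4.22 CPM at 4 weeks there, but these differences were not called (interaction adjusted p = 0.170 for *Cyp2e1* and 0.236 for *Chrm2*).

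**Figure D5:**
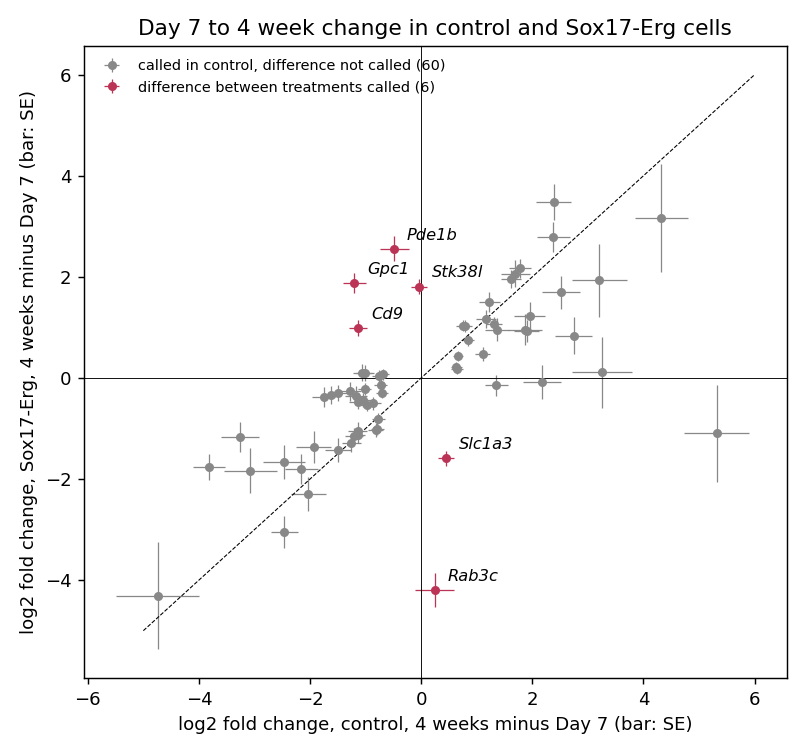
Log2 fold change from Day 7 to 4 weeks in Sox17-Erg cells (vertical) against control cells (horizontal) for the 61 genes called in control cells and 5 further genes whose difference between treatments was called, with standard errors as bars and a dashed line of equal change. The 6 genes with a called difference (red) lie away from the line, and the other 60 (grey) are mostly of one sign in both kinds of cells.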

How the data were processed

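Bulk RNAseq of 12 libraries was analysed, of which 4 are control fibroblasts at Day 7 and 4 weeks. Per the labels, RNA was extracted with Trizol and libraries were made with a stranded Kapa mRNA kit. The submitters' processing notes name bcl2fastq 2.20.0, Salmon, DESeq2 and mm10, and the paper names BBDuk trimming of high GC content. The values the authors deposited are estimated counts for each gene from Salmon, rounded by them to integers and left unscaled for depth. The annotation and strand setting used for counting are not given in the sources used here, so overlapping genes may share reads. Of 35727 genes in the file, 35493 matched GENCODE M21 (GRCm38) for symbols and positions.

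For the quasi-likelihood test, edgeR 4.0.16 in R 4.3.3 modelled 1 mean per group with TMM factors and 6 residual degrees of freedom, after filterByExpr (count of at least 10, total of at least 15), and p-values were adjusted by Benjamini-Hochberg over 15506 genes. SE is the log2 fold change divided by the square root of F. DESeq2 1.42.0 and 14 other settings were alternatives. On simulated data for this comparison (15149 genes kept), 38.8%, 76.9% and 84.4% of genes changed by 2-, 4- and 8-fold were recovered. Counts were drawn with 1 mean per gene and the spread typical of its level. Genes that vary more than that are not covered by these shares. With 2 libraries per group, an exact permutation test cannot go below p = 0.33, and none was run. Library totals of 24120758 to 41240449 limit low genes, and replicates differed far beyond counting error.

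Genes named were the 15 called genes with the largest change in each direction (1 CPM or more in the higher group), the 5 with the smallest adjusted p, up to 4 called members or else the 2 most abundant members of each list, and cell type markers of 10 CPM or more. Some genes that this rule names are not reported here. Other list members and called genes were named after their values were seen. The samples, gene lists and tests were chosen with earlier results of these data known. Replicate numbers were not treated as pairs, since no source says that they mark a shared isolation. Promoter sequences are from RefSeq (GRCm38.p6). Shared 31-base words were counted between M21 transcripts of different genes.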

Additional observations from a re-analysis of the deposited data

Results flagged for a closer look

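In 6 genes the change from Day 7 to 4 weeks differed between control and Sox17-Erg cells by edgeR's interaction test, and values are control minus Sox17-Erg log2 changes. *Gpc1* (-3.07, SE 0.29, adjusted p = 0.0202) and *Cd9* (-2.12, SE 0.23, adjusted p = 0.0202) had lower levels at 4 weeks in control and higher levels in Sox17-Erg cells, and in control cells *Cd9* was called and *Gpc1* was not (adjusted p = 0.0611). *Pde1b*, a calcium-regulated phosphodiesterase, was 2.34 and 3.66 CPM at Day 7 and 1.95 and 2.36 CPM at 4 weeks in control and 8.85 and 7.29 CPM at Day 7 and 51.5 and 43.8 CPM at 4 weeks in Sox17-Erg cells (-3.04, SE 0.36, adjusted p = 0.0306). *Stk38l*, a kinase of the NDR family, was 8.45 and 6.71 CPM at Day 7 and 7.24 and 7.48 CPM at 4 weeks in control and 22.1 and 19.2 CPM at Day 7 and 76.8 and 68.04 CPM at 4 weeks in Sox17-Erg cells (-1.85, SE 0.20, adjusted p = 0.0202). *Rab3c*, a GTPase of vesicle secretion, was 1.11 and 0.924 CPM at Day 7 and 1.03 and 1.42 CPM at 4 weeks in control and 18.4 and 25.1 CPM at Day 7 and 1.59 and 0.778 CPM at 4 weeks in Sox17-Erg cells (4.43, SE 0.48, adjusted p = 0.0202). *Slc1a3*, a glutamate transporter, was 14.1 and 14.6 CPM at Day 7 and 17.97 and 21.3 CPM at 4 weeks in control and 13.6 and 14.1 CPM at Day 7 and 4.21 and 4.96 CPM at 4 weeks in Sox17-Erg cells (2.04, SE 0.20, adjusted p = 0.0202). For the last 4 genes the control change was small and was not called. *Stk38l* shared 22.01% of its 31-base words with 2 other genes. None of the 6 was called without control Day 7 replicate 1, without control 4-week replicate 1, without control 4-week replicate 2 or with only the 8 libraries of the groups compared. Groups of 2 libraries are too small to test single samples for being outlying.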

How the results depend on the processing

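All 61 genes called between Day 7 and 4 weeks kept their direction in every alternative run, which their lack of overlap largely fixed in advance. The number called changed widely. Higher, lower and interaction counts were 27, 34 and 6 in the analysis reported. They were 305, 432 and 144 by DESeq2's Wald test and 397, 645 and 245 without a filter on low counts. They were 1 higher and 2 lower with the 6 control libraries alone, 0, 0 and 0 with the libraries of the compared groups only and 0, 1 and 0 at an adjusted p under 0.01. Leaving out 1 control library gave 0 to 19 higher, 0 to 19 lower and 0 to 7 interaction calls, with the fewest without 4-week replicate 1. The lone library left in such a group is assumed to vary like the other groups. An offset for GC content, chosen after seeing the data, gave 31, 22 and 7. DESeq2's size factors, a minimum count of 50 and a log2 fold change of at least 1 left all 3 counts within 1.5 times. The cause of these differences was not tested.

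A replicate block over all libraries gave 37 higher, 41 lower and 14 interaction calls, with 54 of the 61 genes among them. Deviations of same-numbered control libraries at Day 7 and 4 weeks correlated at -0.11, and those of control and Sox17-Erg libraries at 0.301 at Day 7 and 0.171 at 4 weeks, so whether the numbers pair the samples of the interaction is not settled. With crossed numbers at 4 weeks, a pairing chosen after seeing the data, the replicate block gave 159, 257 and 8.

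With 2 libraries per group the spread of a single gene is poorly known, and calls near the threshold depend on it. Counts and their errors cover these libraries and not further isolations of fibroblasts.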

Other observations

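Some members of the lists not yet named had values that separated the times without a call by edgeR. *Efemp1*, an elastic fiber protein gene, was 37.5 and 34.6 CPM at Day 7 and 177 and 88.9 CPM at 4 weeks. *Abcc9*, a subunit of ATP-sensitive potassium channels, was 4.99 and 5.26 CPM at Day 7 and 21.9 and 10.2 CPM at 4 weeks. *Prdx6*, a peroxiredoxin, was 184 and 208 CPM at Day 7 and 407 and 287 CPM at 4 weeks. *Comp*, a cartilage matrix protein, was 3 and 3.34 CPM at Day 7 and 49.8 and 8.58 CPM at 4 weeks, where 4-week replicate 1 was far above replicate 2. The edgeR adjusted p values of these 4 genes were 0.128, 0.0857, 0.0726 and 0.108. DESeq2's Wald test called all 4 higher (adjusted p = 0.00418, 0.00226, 0.000456 and 0.00129 in the same order), and they were chosen after their values were seen.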
